A study of Arabidopsis thaliana with 12 samples.

Results

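The comparison described here is that of wild-type Arabidopsis thaliana (accession Col-0) on medium with 200 mM NaCl against wild type on medium without added salt, 3 libraries against 3. It takes every gene whose reads passed a low-count filter, which left 18515 of the 33602 genes listed by the authors. A gene that passed only through the group where it was high had to differ, so counts over tested members are descriptions of those members and not of whole families. Seeds were cold-stratified and then sown on agar-solidified MS medium, where they stayed for 16 h with 0 or 200 mM NaCl, and the harvested material is labelled pre-germinated seedlings. The series holds 12 libraries in all, and the other 6 are of the camta6-5 mutant in the same media. The mutant libraries entered the model only to estimate the spread between replicates and to test where its response differed. The study, by its title, concerns the transcription factor CAMTA6 and sodium balance in early germination.

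A stratified seed that takes up water starts to mobilise its reserves, rebuilds its organelles and then enlarges the cells of the embryo until the root breaks the seed coat. High external salt lowers the water potential outside the seed and lets sodium in, and abscisic acid made under such conditions is known in Arabidopsis to hold the embryo in a seed-like state. Genes of seed storage, of late embryogenesis abundant proteins, of photosynthesis and of cell division are well known in this setting and are left aside below. The account follows the wall and cytoskeleton of growing cells, the peptides and receptors at the cell surface, sulfur, nitrogen and sugar metabolism, mitochondria and protein turnover, hormones and light, transcription factors, and metals.

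RNA from 0 mM (control) and 200 mM NaCl differed across most of the transcriptome. At an adjusted p under 0.05 (edgeR quasi-likelihood test, Benjamini-Hochberg over all genes tested), 14341 genes were called (77.5%), of which 7011 were higher in NaCl, 37.9% of those tested, and 7330 were lower, 39.6%. The NaCl libraries all lay above the control libraries for 39.6% of genes and all below for 41%, so 80.7% had groups that did not overlap. At least 2-fold higher were 2499 genes (13.5%), and at least 2-fold lower were 3924 (21.2%). These are called genes whose estimate reached 2-fold. A test against a 2-fold difference itself (edgeR glmTreat) called 1719 genes higher and 2994 lower. The median difference of all genes was -0.01 on the log2 scale, so a list with no direction of its own would sit near 0 with about equal numbers on both sides. The 6 libraries held between 31024600 and 35450685 counted reads. A read count of the 18S ribosomal RNA gene, a sign of leftover ribosomal RNA, lay between 339 and 5104 counts per 1000000 counted reads (CPM) in the control libraries and between 204 and 735 CPM in the NaCl libraries, and its part in the results was not tested. CAMTA6 itself (AT3G16940) was read at 14.7, 18.8 and 20 CPM in wild-type control and at 33.2, 31.8 and 27.7 CPM in wild-type NaCl, a rise of 1.74-fold (adjusted p = 8.36e-05). The libraries labelled camta6-5 held 33.2 to 52.3 CPM of it, and the labels do not say what the mutation does to the transcript, so this level is no check of the label. Nothing in the labels says whether libraries of a group came from separate cultures, so p-values measure the spread between these libraries, which may be technical.

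The 8 largest rises were taken among called genes of at least 5 CPM in NaCl with no overlap between groups, outside the lists left aside. They included a seed maturation protein gene and several genes with no known product. Seed maturation proteins are also classed with late embryogenesis abundant proteins. The gene was absent from the list of 25 used for those, so it is not apart from the genes left aside. Over all genes tested the highest log2 difference was 10.32. AT5G53260, annotated as a seed maturation protein (TAIR10, chromosome 5, 21604662 to 21605674), was read at 0.0567, 0.0916 and 0 CPM in control and at 7.15, 6.92 and 6.57 CPM in NaCl, a log2 difference of 6.99 (SE 0.42, adjusted p = 8.13e-09), or 7.69 without control replicate 2. COR78, also known as RD29A and a classic target of abscisic acid and drought signalling, went from 1.06 ± 0.802 CPM to 79.7 ± 14.1 CPM (mean ± SD, n = 3), 76.1-fold higher, or 133-fold without control replicate 3. GASA2, a small secreted cysteine-rich peptide of the gibberellin-regulated family, went from 0.2 ± 0.154 CPM to 18.8 ± 1.56 CPM, 91.8-fold higher, or 153-fold without control replicate 2. In each of these genes every NaCl library lay above every control library. The other rises of that rank were AT4G33666 (115-fold), AT5G55135 (99.4-fold) and AT2G19320 (81.9-fold), all annotated as uncharacterized, the RING/U-box protein gene AT1G30860 (97.1-fold) and the HAD-type hydrolase gene AT2G36540 (76.5-fold). AT4G33666 overlaps another listed gene, and with a library kit that does not mark the strand part of its reads may belong to that gene.

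The largest falls by the same rule, with at least 5 CPM in control, were of genes that the NaCl libraries almost or entirely lacked. The jacalin-related lectin gene JAL31 (AT3G16430, chromosome 3, 5581663 to 5583187) was read at 12.7, 11.8 and 28.4 CPM in control and had no read in the NaCl libraries, which makes it at least 594-fold lower when 3 counts over the NaCl group are taken as the floor. No read was found in NaCl either for the TRAF-like gene AT5G26260, the polyketide cyclase-like gene AT5G49800, the beta-glucosidase gene BGLU21 and the phosphatase-like gene AT4G29690, which were at least 408-fold, 201-fold, 197-fold and 176-fold lower by the same floor. The related lectin gene AT3G16460 was read at 205, 201 and 341 CPM in control and at 0.417, 0.15 and 0.171 CPM in NaCl, and the latex-protein-like gene MLP28 went from 65.2 ± 12.1 CPM to 0.077 ± 0.0187 CPM. JAL31, AT3G16460 and BGLU21 are known as partners and enzymes of the ER body, a defence compartment of Brassicaceae seedlings. The lectin genes have close copies next to them, between which reads may have been split. ACL5, which makes the polyamine thermospermine and is needed for normal xylem, had 1203 reads in control and 1 read in NaCl, a ratio of 1242 with an exact 95% interval of 222 to 49097 for counting error only. Without NaCl replicate 3, which held that read, it was at least 275-fold lower. AT5G26260 was at least 227-fold lower without control replicate 3. In that control library the lectin genes and AT5G26260 stood well above the other 2, while all 3 NaCl libraries were near or at 0.

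**Figure D1:**
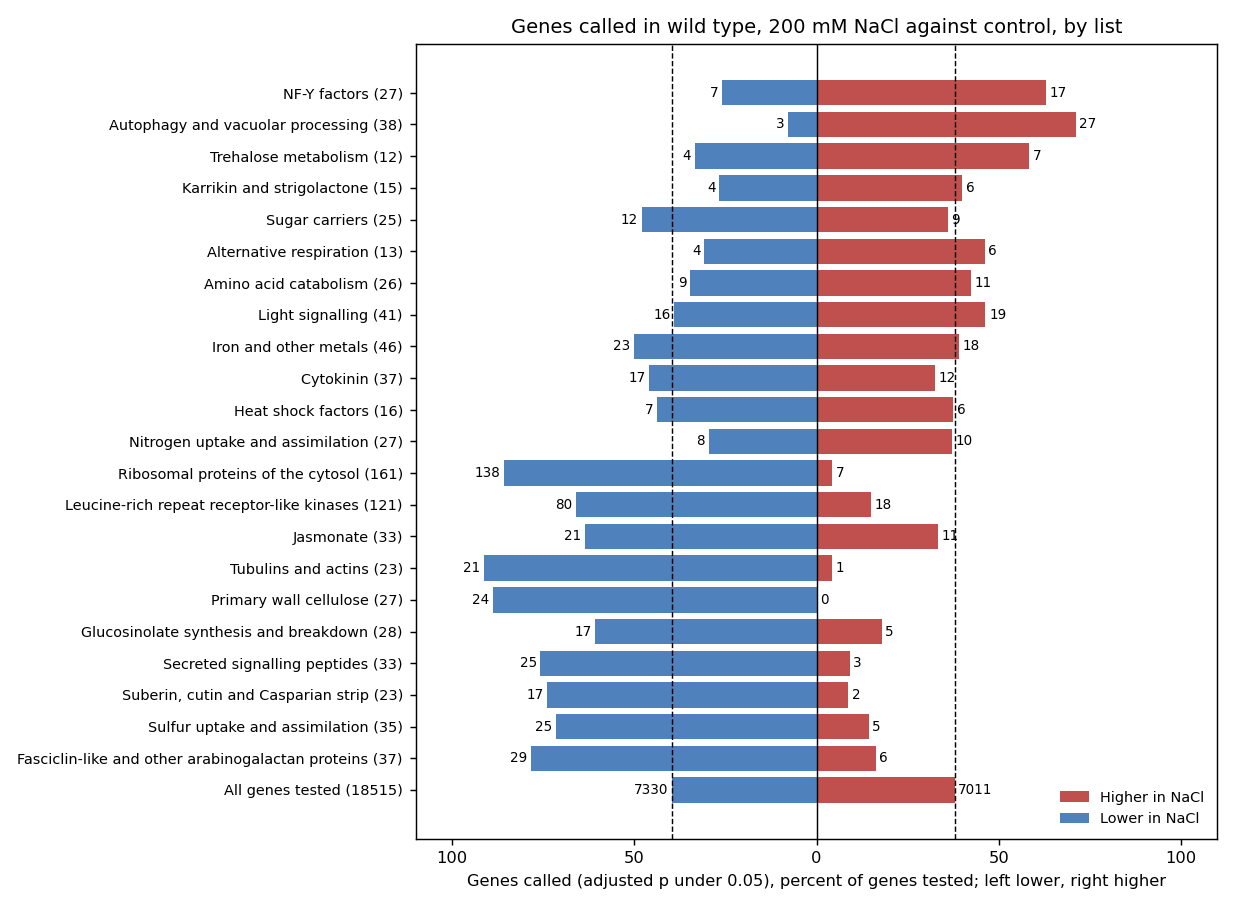
Share of tested genes called higher (right) or lower (left) in NaCl for each list, in percent of the tested members given in brackets, with the number of genes called at the end of each bar. Dashed lines mark the share over all genes tested, 37.9% higher and 39.6% lower. Lists of the wall, cytoskeleton, cell surface and ribosome extend past the left line, and autophagy and NF-Y factors extend past the right line.

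Genes that build the wall of a growing cell were lower in NaCl. The list of primary wall cellulose and hemicellulose genes had 27 of 31 members tested. None was called higher, 24 were lower (88.9%, against 39.6% of all genes) and 3 did not pass the test. The median log2 difference was -1.18 against -0.01 for all genes. CESA1, CESA3 and CESA6, the catalytic subunits of the cellulose synthase complex of primary walls, are named for that role and were chosen after their values were seen. CESA1 was read at 222, 203 and 276 CPM in control and at 122, 116 and 111 CPM in NaCl. CESA3 (2.26-fold lower) and CESA6 (2.18-fold lower) were separated in the same way, so the 3 subunits fell by similar factors. The largest falls in the list among genes of at least 5 CPM were of CSLC4 (AT3G28180), a synthase of the xyloglucan backbone, at 28.8, 30.6 and 46.9 CPM in control and 2.81, 2.68 and 0.995 CPM in NaCl, and of the mannan synthase gene CSLA2 (AT5G22740), at 35.7 ± 16.9 and 5.19 ± 0.445 CPM. CSLC4 was 16.4-fold lower (adjusted p = 7.82e-08) and CSLA2 was 6.87-fold lower (adjusted p = 9.57e-06).

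Tubulins and actins, the subunits of microtubules and actin filaments that guide wall deposition and vesicle traffic, shared this direction. Of 26 members 23 were tested, of which 21 were lower (91.3%, against 39.6% of all genes), 1 was higher and 1 did not pass. The median was -1.14. ACT11 was read at 19.9, 20.5 and 29.4 CPM in control and at 0.778, 0.601 and 0.398 CPM in NaCl, 38.9-fold lower (adjusted p = 1.90e-09). TUB1 was 38.6-fold lower, from 25.2 ± 4.46 to 0.649 ± 0.229 CPM. TUA4, named after its values were seen, went from 206 ± 53.5 to 7.88 ± 1.22 CPM, though TUA4 and TUA2 are near-identical copies between which reads may have been split. TUA1 was the gene called higher, from 20.9 ± 3.29 to 30.8 ± 2.26 CPM, and it overlaps another listed gene. All these differences separated the libraries of the groups without overlap.

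Arabinogalactan proteins, heavily glycosylated proteins of the plasma membrane and wall, had a median of -2.43 over 37 tested of 57 members, or -1.67 when no low-count filter was used. Of these 29 were lower (78.4%) and 6 were higher (16.2%), against 39.6% and 37.9% of all genes. AGP18 was read at 8.14, 8.03 and 15.7 CPM in control and at 0.0278, 0.12 and 0.0853 CPM in NaCl, 132-fold lower (adjusted p = 1.04e-07). The fasciclin-like gene FLA2 was 30.4-fold lower. Against this direction AGP7 was read at 20.7, 23.3 and 20.9 CPM in control and at 53.9, 72 and 55.8 CPM in NaCl, 2.8-fold higher, and FLA19 was 1.93-fold higher. The family therefore held members that moved in opposite directions in the same libraries.

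The waxy and polyester barriers of the outer surface were represented by a list of suberin, cutin and Casparian strip genes, of which 23 of 45 members were tested. In NaCl 17 of these were lower (73.9%) and 2 were higher (8.7%), against 39.6% and 37.9% of all genes. The median was -1.84, which was -0.56 with 4 higher when no low-count filter was used. BDG1, a hydrolase needed for an intact cuticle, was read at 24.3, 20.9 and 34.4 CPM in control and at 0.917, 0.722 and 0.597 CPM in NaCl, 35.3-fold lower (adjusted p = 5.28e-09). KCS2, which elongates fatty acids for suberin, was 14.4-fold lower. The exceptions were lipid exporters of the ABCG family. ABCG20 was 1.93-fold higher and ABCG11, listed as WBC11, was 1.34-fold higher, from 118 ± 9.7 to 158 ± 11.5 CPM. KCS2 and WBC11 overlap other listed genes.

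Peptides that plant cells secrete to signal to neighbours, and the receptor kinases with leucine-rich repeats (LRR) that perceive many of them, were lower together. Of 69 listed peptide genes 33 were tested, and 25 were lower (75.8%) and 3 were higher (9.09%), with a median of -1.75. The shares over all genes were 39.6% and 37.9%. With a minimum count of 50, 15 were lower. CLE41, the precursor of a peptide that keeps vascular stem cells from differentiating into xylem, was read at 23.9, 18.4 and 23.3 CPM in control and at 1.47, 1.8 and 1.65 CPM in NaCl, 13.3-fold lower (adjusted p = 7.43e-10). TWS1 (AT5G01075), the precursor of a peptide that monitors the embryo's cuticle, was 8.89-fold lower. PSY1, a sulfated growth-promoting peptide, was higher, from 5.48 ± 1.52 to 12.9 ± 0.997 CPM, and it overlaps another listed gene. The libraries of the 2 groups did not overlap for any of the 3.

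Of 181 LRR receptor-like kinase genes 121 were tested. Among them 80 were lower (66.1%) and 18 were higher (14.9%), against 39.6% and 37.9% of all genes. The median was -0.71, or -0.45 when no low-count filter was used. At least 2-fold higher were 3, and 49 were at least 2-fold lower, where 13.5% and 21.2% of all genes were. RLK7 (AT1G09970), listed as LRR XI-23 and known as the receptor of stress-induced PIP peptides, was read at 81.3, 83.8 and 92.5 CPM in control and at 579, 538 and 429 CPM in NaCl, 6-fold higher (adjusted p = 7.66e-09). AT5G65240 was 3.66-fold higher. In the other direction AT1G60630 was read at 8.68, 6.32 and 9.89 CPM in control and at 0.139, 0 and 0.0568 CPM in NaCl, 117-fold lower, or 251-fold without NaCl replicate 1, and AT5G59680 was 13.7-fold lower. RLK7 and AT5G65240 thus ran against most of the family.

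**Figure D2:**
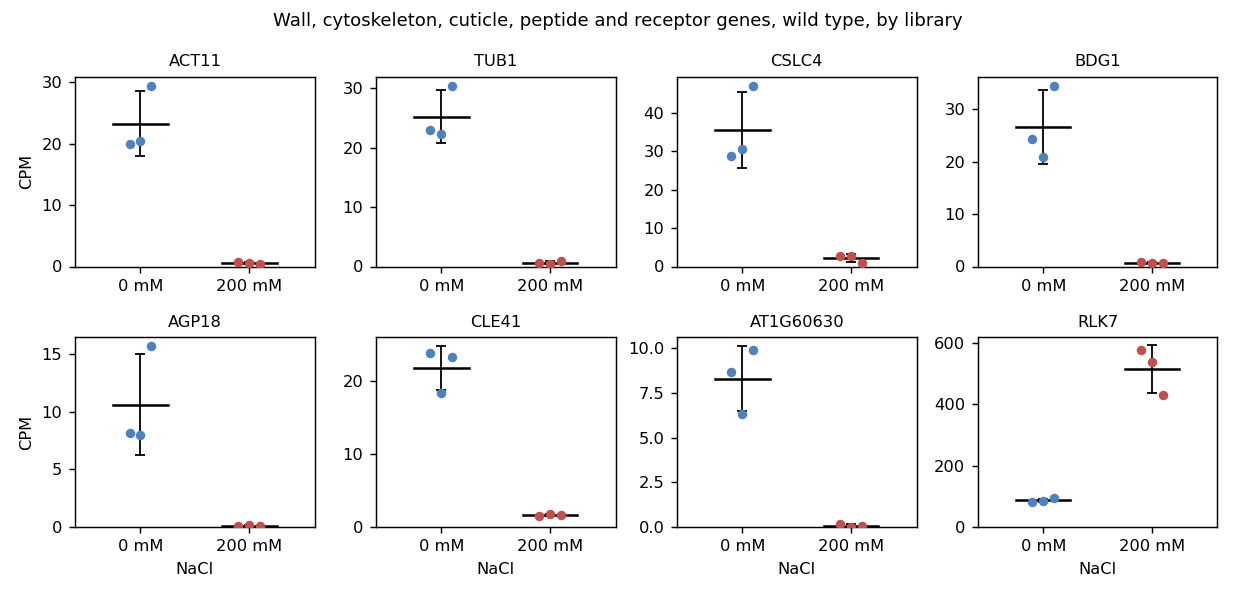
CPM of 8 genes of the wall, cytoskeleton, cuticle, peptide and receptor lists in each wild-type library at 0 and 200 mM NaCl. Points are libraries, horizontal lines the mean of 3 and bars 1 SD, and each panel has its own axis from 0. RLK7 is the gene of the 8 whose NaCl libraries lie above control, at 429 to 579 against 81.3 to 92.5 CPM.

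Most genes of sulfate uptake and its reduction to cysteine were lower. Plants take up sulfate through SULTR carriers, activate it with ATP sulfurylase (APS) and reduce it with APS reductase (APR), and the SDI and LSU genes are known markers of sulfur starvation in Arabidopsis. Of 39 listed genes 35 were tested, with a median of -2.00. Among them 25 were lower (71.4%) and 5 were higher (14.3%), against 39.6% and 37.9% of all genes. At least 2-fold lower were 21, where 21.2% of all genes were. SDI1 was read at 41.7, 47.2 and 22 CPM in control and at 0.417, 0.481 and 0.313 CPM in NaCl, 91.1-fold lower (adjusted p = 1.33e-08). LSU3 was 22-fold lower, from 7.47 ± 2.06 to 0.341 ± 0.252 CPM, or 37-fold without NaCl replicate 2. Both starvation markers were therefore lower in salt, with every NaCl library under 1 CPM.

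The enzymes of reduction moved the same way. APS1 and APR1, chosen after their values were seen, were read at 206, 195 and 209 CPM and at 40.7, 41.9 and 34.4 CPM in control. In NaCl they stood at 40.6, 42.3 and 42.3 CPM and at 3.7, 3.49 and 3.16 CPM. APS1 was 4.88-fold lower (adjusted p = 1.57e-10) and APR1 was 11.3-fold lower (adjusted p = 6.34e-10). Against the list, the plastid sulfate carrier gene SULTR3;1 was 5.82-fold higher, from 3.11 ± 0.823 to 18 ± 1.07 CPM, and the serine acetyltransferase gene SERAT2;1 was 3.08-fold higher. EIL3, also known as SLIM1 and the central regulator of the sulfur starvation response, was higher as well, at 10.3, 12 and 10.6 CPM in control and 33, 34.2 and 29.3 CPM in NaCl (2.93-fold, chosen after its values were seen). The regulator and the markers SDI1 and LSU3 thus differed in opposite directions.

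Glucosinolates, the sulfur-rich defence compounds of Brassicaceae, depend on the same sulfate activation, and their genes were also mostly lower. Of 45 listed genes 28 were tested, with a median of -1.64. Among them 17 were lower (60.7%), each at least 2-fold, and 5 were higher (17.9%). Over all genes 39.6% were lower, 21.2% at least 2-fold, and 37.9% were higher. NSP1 (AT3G16400, listed as ATMLP-470), which steers glucosinolate breakdown towards nitriles, was read at 172, 139 and 230 CPM in control and at 2.09, 1.38 and 1.96 CPM in NaCl, 99.1-fold lower (adjusted p = 3.83e-10). SOT17, a sulfotransferase of the last step of core synthesis, was 58.3-fold lower. The cytochrome P450 genes CYP83B1 and CYP79B2, which act in synthesis from tryptophan and were chosen after their values were seen, were 12.9-fold and 29.1-fold lower. NSP2, a relative of NSP1 known from seeds, was 4.74-fold higher, from 1.09 ± 0.0792 to 5.18 ± 1.37 CPM, and the side-chain oxygenase gene FMO GS-OX5 was 2.15-fold higher and overlaps another listed gene. The MYB28, MYB29 and CYP79F1 genes of methionine-derived glucosinolates had no read in any wild-type library.

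A few carriers and enzymes of nitrate use rose strongly. Of 38 listed nitrogen genes 27 were tested, and the 10 higher (37%) and 8 lower (29.6%) left the list without a direction that set it apart from all genes, with a median of -0.21. NRT1.7 (AT1G69870, chromosome 1, 26316027 to 26320220), which loads nitrate into the phloem to remobilise it, was read at 6.58, 4.22 and 6.26 CPM in control and at 271, 257 and 209 CPM in NaCl, 43.2-fold higher (adjusted p = 2.05e-09). NRT1.8, which removes nitrate from the xylem sap and is known to respond to stress, was 13.9-fold higher and overlaps another listed gene. Nitrite reductase (NIR1) and NADH-dependent glutamate synthase (GLT1), chosen after their values were seen, were 3.61-fold and 2.17-fold higher. GS2, the plastid glutamine synthetase, was lower, from 6.02 ± 3.47 to 1.35 ± 0.191 CPM (4.44-fold, or 2.93-fold without control replicate 3), and the cytosolic GLN1;3 (AT3G17820, listed as ATGSKB6) was 1.84-fold lower.

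Among 26 tested of 30 listed genes of amino acid breakdown and asparagine synthesis, 11 were higher (42.3%) and 9 were lower (34.6%), near the shares of all genes. The asparagine synthetases divided. ASN1, the form known to be induced by darkness and low sugar, was read at 2.33, 2.93 and 1.63 CPM in control and at 116, 74.5 and 70.4 CPM in NaCl, 37.8-fold higher (adjusted p = 4.30e-09). ASN3 was lower, at 93.8, 94.5 and 106 CPM in control and 29.8, 29.9 and 37.6 CPM in NaCl, and ASN2 was 2.23-fold lower. BCAT2 (AT1G10070), a transaminase of branched-chain amino acids listed as ATBCAT-2, was 71.1-fold higher from 0.101 ± 0.0654 CPM and overlaps another listed gene. Methionine gamma-lyase (MGL, chosen after its values were seen) was 8.28-fold higher, from 16.5 ± 1.52 to 136 ± 14.9 CPM.

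Of 46 listed sugar carriers 25 were tested, and the 9 higher (36%) and 12 lower (48%) were near the 37.9% and 39.6% of all genes, so only single members are described. SUC1, a sucrose uptake carrier of the plasma membrane, was read at 210, 171 and 198 CPM in control and at 3.67, 2.74 and 5.77 CPM in NaCl, 47.4-fold lower (adjusted p = 3.83e-10). The close relative SUC5, an endosperm carrier, was 18.1-fold lower. The inositol carrier gene INT2 was 8.67-fold higher, from 1.56 ± 0.3 to 13.6 ± 0.425 CPM, and the polyol carrier gene PMT6 (listed as PLT6) was 3.57-fold higher (adjusted p = 0.0047). The highest log2 difference among the sugar carriers was 5.52, in a member that the naming rule left out. In trehalose metabolism, which makes the sugar signal trehalose 6-phosphate, 7 of 12 tested genes were higher (58.3%) and 4 were lower (33.3%). The class II genes TPS11 and TPS10, which encode no known catalytic activity, were 4.77-fold and 3.45-fold higher, while TPS5 was read at 26.1, 26.3 and 26.1 CPM in control and at 5.81, 5.53 and 6.22 CPM in NaCl, 4.46-fold lower. The phosphatase gene TPPA was 1.89-fold lower.

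**Figure D3:**
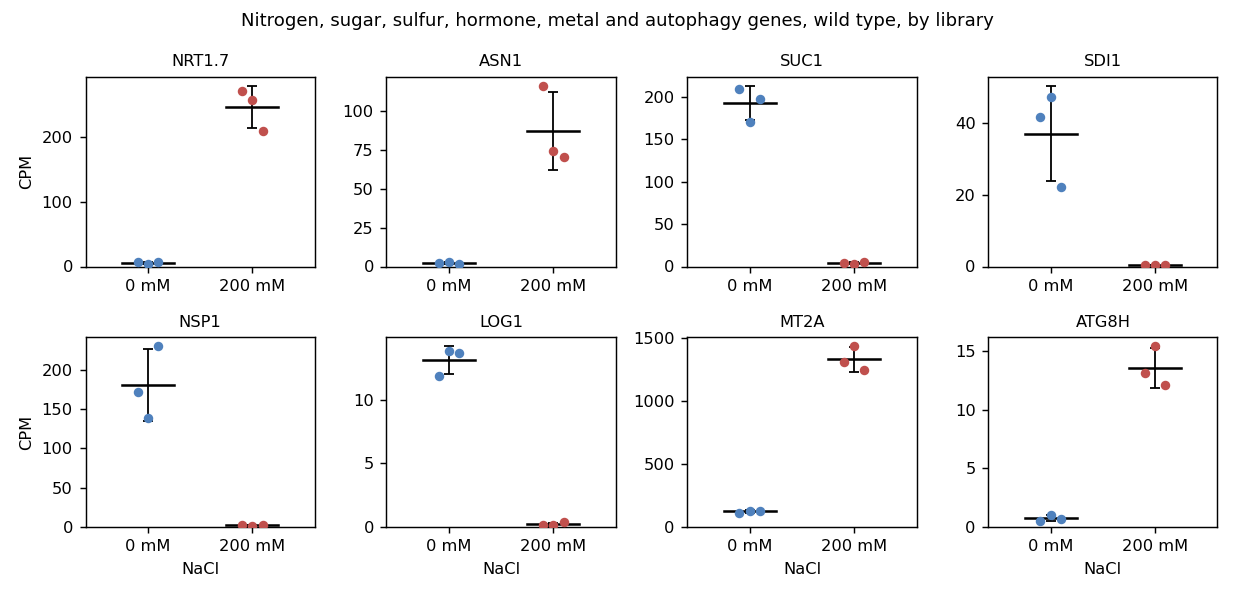
CPM of 8 genes of nitrogen, sugar, sulfur, glucosinolate, cytokinin, metal and autophagy lists in each wild-type library at 0 and 200 mM NaCl. Points are libraries, horizontal lines the mean of 3 and bars 1 SD, and each panel has its own axis from 0. NRT1.7, ASN1, MT2A and ATG8H are higher in all NaCl libraries, and SUC1, SDI1, NSP1 and LOG1 are lower in all of them.

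The plant mitochondrion has a second route for electrons, made of NAD(P)H dehydrogenases on the inner membrane and an alternative oxidase (AOX), which passes electrons to oxygen without pumping protons. The 14 listed genes of this route and of uncoupling proteins had 13 tested. Of these 6 were higher (46.2%), each at least 2-fold, and 4 were lower (30.8%), 3 of them at least 2-fold. The lowest log2 difference was -5.23, in a member that the naming rule left out. The median was 0.06 and the shares were near those of all genes, so only single members are described. AOX1A, the stress-responsive oxidase (chromosome 3, 7906791 to 7908740), was read at 5.13, 4.86 and 9.26 CPM in control and at 69.3, 90.3 and 48.3 CPM in NaCl, 10.8-fold higher (adjusted p = 4.81e-05). The internal dehydrogenase gene NDA1 (AT1G07180, listed as ATNDI1) was 7.98-fold higher, from 5.38 ± 1.45 to 43.1 ± 2.41 CPM. NDB2, an external dehydrogenase known to be induced together with AOX1A, and the second oxidase gene AOX2, both chosen after their values were seen, were 5.34-fold and 4.11-fold higher. The uncoupling protein gene UCP1 (listed as ATPUMP1) was 2.32-fold lower, from 315 ± 36.4 to 136 ± 11.9 CPM, and NDB1 was 1.28-fold lower, and both overlap other listed genes.

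In Arabidopsis, the NAC factor ANAC013 is known to carry a signal from impaired mitochondria to the nucleus through a promoter element called the mitochondrial dysfunction motif. A set of 10 genes known for that response or for sharing its inducers was put together after values had been seen, so its direction is a description only. ANAC013 itself (listed as ANAC13) was read at 13, 14.4 and 14.6 CPM in control and at 128, 147 and 102 CPM in NaCl, 8.98-fold higher, with an overlapping gene at its locus. UGT74E2, which glucosylates the auxin indole-3-butyric acid, was read at 15.3, 21.9 and 13.7 CPM in control and at 248, 332 and 240 CPM in NaCl, 16.1-fold higher (adjusted p = 1.25e-07). The cytochrome P450 gene CYP81D8 was 24.8-fold higher, AT2G41730 was 27.5-fold higher (37.5-fold and 43.4-fold without control replicate 3), and AT2G21640, annotated as a marker of oxidative stress, was 2.59-fold higher. With AOX1A, NDA1 and NDB2 that made 8 of 10. BCS1, also known as OM66 and a protein of the outer mitochondrial membrane, was lower instead, from 2.61 ± 1.03 to 0.592 ± 0.141 CPM, and the CHCH-domain gene AT5G09570 stood at 0.59 ± 0.131 and 0.734 ± 0.141 CPM (adjusted p = 0.39). The response was thus not shared by every gene known for it.

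The 200 bases before each RefSeq gene start (TAIR10.1) were searched on both strands for the motif, spelled CTTG, then 5 bases of any kind, then CAAG or CACG. It was found before 4 of the 10 genes. That set was chosen for a response known to run through this motif, so its share is partly fixed and is no test. The motif was found in 0.977% of the 26711 windows of nuclear protein-coding genes and 0.683% of the 17868 windows of genes tested. The share was 1.73% of 2374 windows of genes at least 2-fold higher in NaCl and 0.548% of 3829 windows of genes at least 2-fold lower. The 4 windows are shown because they carry the match, 5′ to 3′ on the strand of the gene, with the match in capitals. The window of CYP81D8 is chr4:17571744-17571943 on the minus strand. The windows of AT2G21640 (chr2:9254178-9254377), NDB2 (chr4:2572227-2572426) and NDA1 (chr1:2203904-2204103) are on the plus strand.
CYP81D8: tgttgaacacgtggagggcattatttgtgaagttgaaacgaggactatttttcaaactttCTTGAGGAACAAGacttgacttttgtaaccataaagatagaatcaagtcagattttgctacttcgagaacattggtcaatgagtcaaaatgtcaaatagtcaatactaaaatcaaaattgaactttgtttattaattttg
AT2G21640: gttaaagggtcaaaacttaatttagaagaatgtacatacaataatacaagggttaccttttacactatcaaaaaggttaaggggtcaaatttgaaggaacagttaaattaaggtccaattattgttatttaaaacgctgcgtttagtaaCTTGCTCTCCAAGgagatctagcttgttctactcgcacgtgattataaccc
NDB2: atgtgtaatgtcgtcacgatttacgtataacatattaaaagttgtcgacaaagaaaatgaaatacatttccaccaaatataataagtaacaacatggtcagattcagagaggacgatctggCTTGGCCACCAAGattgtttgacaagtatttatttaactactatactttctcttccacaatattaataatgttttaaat
NDA1: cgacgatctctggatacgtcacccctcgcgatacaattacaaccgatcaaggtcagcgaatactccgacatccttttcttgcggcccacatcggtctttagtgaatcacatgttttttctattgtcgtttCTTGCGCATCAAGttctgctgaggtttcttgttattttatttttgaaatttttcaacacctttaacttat
In all 4 the match had the first spelling, which reads alike on both strands, and it began 140, 51, 79 and 70 bases before the gene start in the order given. The windows of AOX1A, ANAC013, UGT74E2, AT2G41730, BCS1 and AT5G09570 did not hold these letters. A match is a description of the sequence and not evidence of binding.

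**Figure D4:**
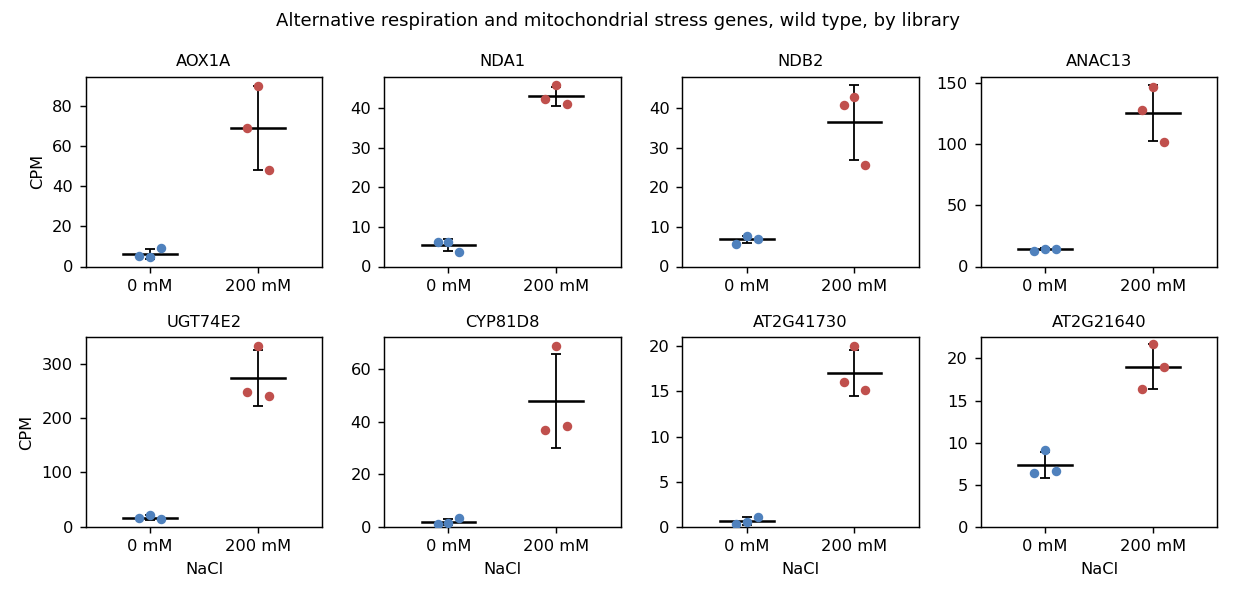
CPM of 8 genes of alternative respiration and mitochondrial stress in each wild-type library at 0 and 200 mM NaCl. Points are libraries, horizontal lines the mean of 3 and bars 1 SD, and each panel has its own axis from 0. The NaCl libraries of each of the 8 genes lie above all control libraries, with AOX1A at 48.3 to 90.3 against 4.86 to 9.26 CPM.

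Autophagy delivers cell contents to the vacuole, where processing enzymes and proteases act on them. Of 43 listed genes 38 were tested, and 27 were higher (71.1%) and 3 were lower (7.89%), with a median of 0.68. Of the 27 rises 9 reached 2-fold. Over all genes 2499 of 7011 rises did, so small rises did not set this list apart. ATG8H, one of the ubiquitin-like proteins that coat the growing autophagosome, was read at 0.51, 1.04 and 0.638 CPM in control and at 13.1, 15.4 and 12.1 CPM in NaCl, 18.5-fold higher (adjusted p = 7.70e-08), and ATG8B was 3.88-fold higher. NBR1 (AT4G24690), a receptor that brings ubiquitinated cargo to ATG8, and BETA-VPE, the vacuolar processing enzyme of seeds, were chosen after their values were seen and were 2.76-fold and 3.36-fold higher. The vacuolar protease AALP was lower, at 63.4, 58.7 and 63.7 CPM in control and 9.26, 8.72 and 12.1 CPM in NaCl.

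Genes with ribosomal protein symbols, a list meant for the cytosol, were lower by a small and even amount. Of 177 genes with a standard ribosomal protein symbol 161 were tested, with a median of -0.60. Among them 138 were lower (85.7%), 7 were higher (4.35%) and 16 did not pass, against 39.6% lower and 37.9% higher of all genes. Only 17 were at least 2-fold lower, where 21.2% of all genes were. The strongest falls were of RPS11B, from 81.6 ± 1.09 to 30.3 ± 2.72 CPM, and of RPL3A (AT2G43030), from 350 ± 16.3 to 141 ± 14.5 CPM. RPL3A is annotated only as a ribosomal protein L3 family gene. Symbols do not tell where a protein acts, so the list may hold genes of organelle ribosomes, RPL3A possibly among them. RPS9C went the other way, at 193, 195 and 136 CPM in control and 364, 418 and 396 CPM in NaCl, 2.25-fold higher (adjusted p = 1.02e-05), and RPL18AA was 1.54-fold higher with an overlapping gene. Ribosomal protein genes occur as close paralogs, between which the counting may have split reads.

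**Figure D5:**
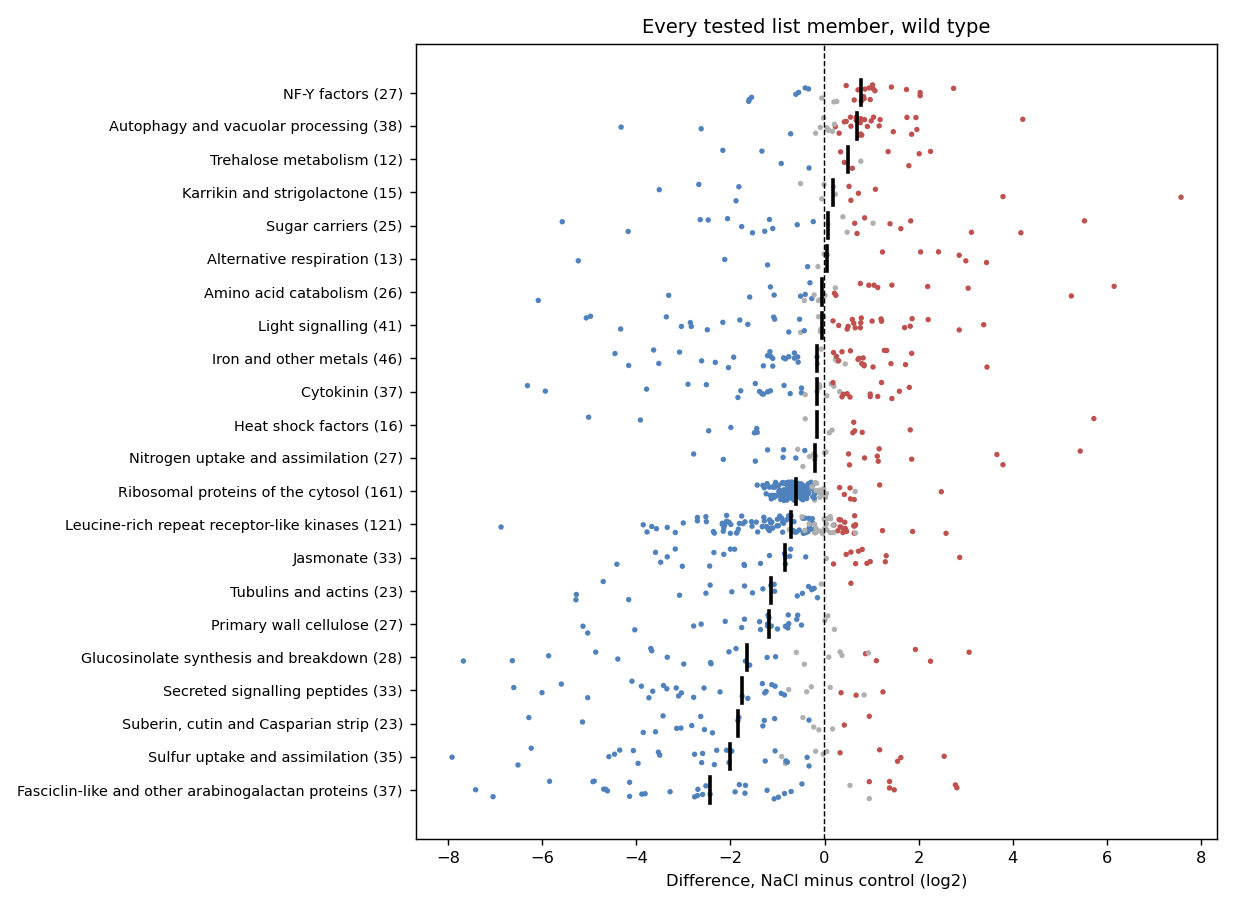
Log2 difference (NaCl minus control) of every tested member of each list in wild type, with the number tested in brackets. Red points were called higher, blue points lower and grey points not called at an adjusted p of 0.05, black bars are list medians and the dashed line is the median of all genes, -0.01. Ribosomal protein genes are packed closely around -0.60, while sulfur, glucosinolate and peptide genes spread over several log2 units.

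Lists were kept for jasmonate, cytokinin, and karrikins with strigolactones. Of 33 tested jasmonate genes from 43 listed, 21 were lower (63.6%) and 11 were higher (33.3%), with a median of -0.83. The share higher was near the 37.9% of all genes, and the share lower was above their 39.6%. CYP94C1, which oxidises and so inactivates jasmonoyl-isoleucine, was read at 8.25, 8.58 and 12.1 CPM in control and at 0.556, 0.722 and 1.11 CPM in NaCl, 12-fold lower (adjusted p = 2.17e-07). LOX4, a lipoxygenase of jasmonate synthesis, was 11.2-fold lower, and MYC2, the main activator of jasmonate responses (chosen after its values were seen), was 3.26-fold lower. The 2 largest rises among genes of at least 5 CPM were of repressors. The list also held a log2 difference of up to 2.87 in a member that the naming rule left out. In all 3 members were at least 2-fold higher. JAZ3 was read at 13.7, 13 and 12.9 CPM in control and at 32.9, 35.7 and 29.5 CPM in NaCl, and JAM3 (AT4G16430, listed as BHLH3), which competes with MYC2 for its targets, was 1.96-fold higher and overlaps another gene.

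Cytokinin genes had 37 of 57 members tested, of which 12 were higher (32.4%) and 17 were lower (45.9%), near the shares of all genes, with a median of -0.16. LOG1, an enzyme that releases active cytokinin, was read at 11.9, 13.8 and 13.7 CPM in control and at 0.139, 0.15 and 0.341 CPM in NaCl, 61.2-fold lower (adjusted p = 3.39e-09). AHP2, a carrier of the cytokinin phosphorelay, was 3.43-fold lower. The receptor gene AHK3 was higher, at 39, 37.9 and 36.3 CPM in control and 127, 114 and 101 CPM in NaCl, and the response factor gene CRF1 was 2.69-fold higher. The receptor and the activating enzyme therefore differed in opposite directions.

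Karrikins are germination stimulants from smoke whose receptor KAI2 removes the repressor SMAX1, and strigolactones act through a related pathway. Of 19 listed genes 15 were tested, with 6 higher (40%) and 4 lower (26.7%). SMAX1 (AT5G57710) was read at 89.2, 91.9 and 85.6 CPM in control and at 197, 199 and 167 CPM in NaCl, 2.11-fold higher (adjusted p = 4.98e-07). DLK2 (AT3G24420), a relative of KAI2, was 13.9-fold higher, from 0.725 ± 0.366 to 10 ± 3.28 CPM. A member that the naming rule left out had the highest log2 difference of the list, 7.57. KUF1, a gene known to be induced by karrikins, differed in the opposite direction to DLK2. It was 6.35-fold lower, with all NaCl libraries between 1.35 and 1.42 CPM.

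Of 41 tested light signalling genes from 45 listed, 19 were higher (46.3%) and 16 were lower (39%), near the shares of all genes. PIF6 (AT3G62090, listed as PIL2) was read at 1.9, 2.5 and 2.23 CPM in control and at 23.6, 20.8 and 24.8 CPM in NaCl, and SPA4, a partner of the COP1 ubiquitin ligase that removes light-promoting factors, was 4.58-fold higher. PIF1 (AT2G20180, listed as PIL5), the phytochrome-interacting repressor of germination, was chosen after its values were seen and was 3.25-fold higher, from 107 ± 19.8 to 347 ± 18.3 CPM. HY5, the factor that promotes seedling greening, was 5.6-fold lower (also chosen after its values were seen), PAR2 was 33.4-fold lower, and RUP2, a brake on UV-B signalling, was 31.3-fold lower. PIF6, SPA4 and PIF1 overlap other listed genes.

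NF-Y factors bind the CCAAT box as complexes of A, B and C subunits. Of 36 listed genes 27 were tested, and 17 were higher (63%) and 7 were lower (25.9%), with a median of 0.78. NF-YA7 was read at 3.01, 3.36 and 2.97 CPM in control and at 20.5, 21.6 and 20.1 CPM in NaCl, 6.66-fold higher (adjusted p = 3.89e-09), and NF-YA6 was 4.07-fold higher. NF-YA2 (listed as UNE8) ran against the other named A subunits, at 35.6, 33.2 and 39.8 CPM in control and 10.4, 13.3 and 11.8 CPM in NaCl, and NF-YC4 was 3.03-fold lower.

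Of 18 listed heat shock factors 16 were tested, and the 6 higher (37.5%) and 7 lower (43.8%) were close to the shares of all genes, so only single members are described. HSFA2, which sustains the heat stress response, was read at 71.4, 105 and 166 CPM in control and at 9.42, 9.8 and 3.61 CPM in NaCl, 15-fold lower (adjusted p = 3.29e-06). HSFA7A was 32.2-fold lower, from 24.5 ± 11.9 to 0.758 ± 0.213 CPM. The control libraries were spread widely for both genes, replicate 3 being the highest, yet they lay above all NaCl libraries. HSFA1E, one of the constitutive master factors, was 3.54-fold higher, from 24.1 ± 3.27 to 85.4 ± 8.73 CPM, and HSFA8 was 1.74-fold higher. A larger rise, a log2 difference of 5.72, was that of a member that the naming rule left out. At least 2-fold higher were 2 members, and 7 were at least 2-fold lower.

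Metal genes had 46 of 69 members tested, with 18 higher (39.1%) and 23 lower (50%), near the shares of all genes. MT2A, a metallothionein that binds copper and zinc, was read at 111, 127 and 128 CPM in control and at 1310, 1442 and 1249 CPM in NaCl, 11-fold higher (adjusted p = 2.35e-09). The copper pump gene HMA5 was 3.6-fold higher, and FER2, the ferritin of seeds (chosen after its values were seen), was 3.29-fold higher. FSD1, the plastid iron superoxide dismutase, was 12.4-fold lower. IRT3, a zinc and iron uptake carrier, was 11.5-fold lower, at 81, 73.1 and 55.4 CPM in control and 5.59, 6.13 and 6.48 CPM in NaCl. Outside the lists described here, PDF1.1 (AT1G75830, listed as LCR67), a plant defensin of seeds, was named after its values were seen, and it was read at 651, 632 and 683 CPM in control and at 4389, 5220 and 4276 CPM in NaCl, 7.06-fold higher.

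Markers of single cell types were compared for whole lists, since in whole seedlings fewer cells of a type and less RNA per cell cannot be told apart. All 5 epidermis markers were lower, and their summed level was 994 to 1177 CPM in control and 435 to 457 CPM in NaCl. Within that list PDF1, a protein of the outer cell layer, went from 367 ± 78.4 to 19.8 ± 1.84 CPM and FDH, a fatty acid elongase of the epidermis, from 326 ± 16.5 to 233 ± 8.8 CPM. Shoot meristem markers summed to 36.5 to 40.2 CPM and 16.8 to 18.6 CPM, and stomatal lineage markers to 22.9 to 25.5 CPM and 6.28 to 9.07 CPM. Phloem markers summed to 106 to 139 CPM and 48.8 to 61.1 CPM, and root endodermis and stem cell niche markers to 76.4 to 80.7 CPM and 44.5 to 48.7 CPM. The 4 tested of 5 shoot meristem markers and the 3 tested of 5 endodermis and niche markers were lower, as were 3 of 4 stomatal markers and 3 of 4 phloem markers, while the phloem factor APL was higher. Of the root endodermis list the Casparian strip gene CASP1 had no read in these libraries. Root cap markers summed to 5.78 to 7.48 CPM and 1.72 to 2.07 CPM, root hair markers to 5.39 to 6.72 CPM and 3.82 to 4.78 CPM, xylem markers to 4.51 to 4.85 CPM and 3.67 to 4.8 CPM, and seed coat markers to 17 to 21.5 CPM and 9.86 to 11.8 CPM. Nearly all of the root hair sum was of RHD6, which went from 5.91 ± 0.717 to 3.9 ± 0.464 CPM. The other tested root hair marker, LRX1, was higher, from 0.0201 ± 0.0175 to 0.423 ± 0.133 CPM (17.8-fold), so that list had no common direction. Other sums also rested mostly on 1 gene each, among them SUC2 for phloem and MUM4 for seed coat. Endosperm markers summed to 43.1 to 121 CPM in control and 46.7 to 65.8 CPM in NaCl and so overlapped. Flower markers summed to less than 1 CPM in each library, and pollen markers to 0.0305 to 0.191 CPM in control and 1.2 to 3.49 CPM in NaCl. Nearly all of the pollen sum in NaCl was of 1 gene, the pectin methylesterase gene ATPPME1, at 2.19 ± 1.14 CPM, while the others of that list were at or near 0. The part of these marker differences in the wall, cuticle, peptide and receptor results was not tested.

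Some of these genes responded differently in camta6-5. The test of that difference called 48.1% of all genes tested. The response of camta6-5 minus that of wild type was called positive for 5017 (27.1%) and negative for 3888 (21%). NSP1 had a log2 difference between NaCl and control of -6.63 in wild type and -1.14 in camta6-5, which differed by 5.49 (SE 0.31, adjusted p = 1.96e-07). SUC1 had log2 values of -5.57 and -1.38, UGT74E2 of 4.01 and 0.99, and ANAC013 of 3.17 and 1.19, and each pair differed by the same test. AOX1A did not pass it (difference -1.03, SE 0.76, adjusted p = 0.28), and neither did CYP81D8, with 4.63 and 4.67 (difference 0.04, SE 0.92, adjusted p = 0.98).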

How the data were processed

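RNA was extracted from whole pre-germinated seedlings and sequenced after TruSeq RNA v2 preparation, which does not mark the strand, per the labels. The deposited table gives raw read counts per gene. The submitters' processing notes name cutadapt 1.9, TopHat2 2.1.0, Bowtie2 2.2.6, HTSeq 0.6.1, DESeq2 1.10.0 and the TAIR10 build. Genes were kept by edgeR's filterByExpr (minimum count 10, minimum total 15), scaled with TMM and tested with the edgeR 4.0.16 quasi-likelihood test in R 4.3.3 on all 12 libraries with 4 group terms and no covariate, with Benjamini-Hochberg adjustment over 18515 genes. DESeq2 1.42.0, limma 3.58.1 (voom), other scalings and filters, a replicate block and left-out libraries were alternatives. Replicates differed by 10.6 to 35.2 chi-square units per gene, more than counting noise alone, which does not tell separate cultures from repeat preparations. CPM values are on TMM-scaled library sizes. Library totals were 31024600 to 35450685, and all intervals cover counting error only.

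The members and lists were chosen with earlier results of these data known. Genes were named by a rule: the 8 largest rises and falls among called genes whose libraries did not overlap and whose higher mean was at least 5 CPM, the same for the 2 largest in each direction of each list described, and CAMTA6. In several lists a member that this rule left out had a larger difference than those named. Of 127 genes named with full values, 28 were chosen after their values were seen. The 139 tested genes of the 4 lists of storage, LEA, photosynthesis and cell division were not named. Gene names and windows are from RefSeq (TAIR10.1), which matched 32835 genes, and 4329 genes overlap another listed gene. The pattern first written for ribosomal proteins matched 8 genes, and a rule on gene symbols replaced it. That rule may not separate cytosolic from organelle members.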

Additional observations from a re-analysis of the deposited data

Results flagged for a closer look

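For the following named genes the response to NaCl differed between genotypes by a test of the difference itself (interaction term, edgeR quasi-likelihood test, adjusted p under 0.05 over all genes tested, where 48.1% of genes passed). Each value is the log2 response in camta6-5 minus that in wild type, with 3 libraries in each of the 4 groups. No explanation of them was tested. Most of these genes were named for a large change in wild type, so a difference of the opposite sign is partly fixed by that choice and is no sign of a general pattern.

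Of genes lower in NaCl in wild type, the difference was positive for all those listed here except TPPA (-0.58). JAL31, BGLU21, AT4G29690 and AT5G49800 had no read in NaCl in wild type, so only a lower bound can be given, with 3 counts over that group as the floor. By it the difference was at least 6.18 for JAL31, 4.75 for BGLU21, 4.75 for AT4G29690 and 4.17 for AT5G49800. The fitted value of ACL5 (7.04) rests on 1 read in that group. Large values were also those of AT3G16460 (8.02), MLP28 (7.15), NSP1 (5.49), AT1G60630 (4.31) and PAR2 (4.28). Next in size came SUC1 (4.19), AGP18 (4.16), BDG1 (3.39), TUA4 (3.24), TUB1 (2.93), SUC5 (2.91), KCS2 (2.89), LOX4 (2.85), ACT11 (2.78) and CYP94C1 (2.28). Further values were those of KUF1 (2.22), CLE41 (2.16), RUP2 (2.13), HY5 (1.99), HSFA2 (1.95), CSLC4 (1.94), LOG1 (1.87), SOT17 (1.84), APR1 (1.69) and IRT3 (1.61). Smaller values were those of FSD1 (1.53), AALP (1.51), TWS1 (1.5), CYP83B1 (1.5), TPS5 (1.49), GS2 (1.47), BCS1 (1.28), ASN3 (1.04), MYC2 (0.98) and ASN2 (0.89). The smallest were those of NF-YC4 (0.85), APS1 (0.85), GLN1;3 (0.80), CESA6 (0.77), CESA3 (0.76), AHP2 (0.71), CESA1 (0.64), RPL3A (0.60), NF-YA2 (0.56) and UCP1 (0.41).

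Of genes higher in NaCl in wild type, the difference was negative for all those listed here except FLA19 (0.57). In that direction the first were UGT74E2 (-3.02), ATG8H (-2.67), AT2G19320 (-2.52), BCAT2 (-2.31), NDA1 (-2.18), NRT1.8 (-2.00), ANAC013 (-1.97), NRT1.7 (-1.94), COR78 (-1.81) and HMA5 (-1.73). They were followed by AT2G21640 (-1.65), ATG8B (-1.45), AT5G55135 (-1.39), NSP2 (-1.32), NIR1 (-1.32), SPA4 (-1.28), NDB2 (-1.26), AT5G65240 (-1.17), RLK7 (-1.15) and HSFA1E (-1.13). After these came JAZ3 (-1.12), INT2 (-1.06), EIL3 (-1.06), NF-YA7 (-1.01), CRF1 (-0.93), PIF1 (-0.90), TPS10 (-0.87), TPS11 (-0.86), MT2A (-0.86) and AGP7 (-0.81). Below these lay NF-YA6 (-0.74), AHK3 (-0.73), MGL (-0.73), RPS9C (-0.67), PIF6 (-0.67), GLT1 (-0.53), ABCG11 (-0.52), FMO GS-OX5 (-0.49), JAM3 (-0.48) and HSFA8 (-0.43). The last was TUA1 (-0.41).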

How the results depend on the processing

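Scaling by DESeq2's size factor method called 14349 genes in the wild-type comparison against 14341 with TMM, scaling by library size alone 14252, no low-count filter 14813, a minimum count of 50 12969, DESeq2 14108, limma voom 14358 and a fit of the 6 wild-type libraries alone 14037. Leaving out 1 wild-type library in turn called 13686 to 14006 genes, and 94.2% to 95.5% of the 14341 were among them. With replicate number as a block 14340 genes were called, 7021 higher and 7319 lower, of which 14230 were shared. The numbers did not pair the wild-type libraries, since same-numbered libraries had correlations of -0.0873, -0.065 and -0.0857 after the group means were removed. None of the 127 named genes changed its call or direction under these alternatives, though 1 was not tested with a minimum count of 50. List medians moved most with the filter. The suberin and cutin median was -0.56 without a filter and -2.47 with a minimum count of 50, against -1.84. The heat shock factor median changed sign to 0.10 under both filters, amino acid breakdown went to 0.11 with a minimum count of 50, and alternative respiration to 0.61, or to 0.48 without control replicate 1. The number of peptide genes called lower fell from 25 to 15 with a minimum count of 50, that of glucosinolate genes called higher from 5 to 3, and suberin and cutin genes called higher went from 2 to 4 without a filter. A single cellulose gene was called higher without control replicate 3 or without NaCl replicate 3. The cause of these shifts was not tested. A test on simulated counts of 18129 genes found 43 of the 67 differences of 1.5-fold, 62 of the 67 of 2-fold and all 66 of 4-fold. Small differences were thus missed there with 3 libraries a group. The simulation changed a far smaller share of genes than the 77.5% called here. Adjusted p-values depend on that share, so these recoveries do not carry over to this comparison.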

Other observations

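Some gene families that were not described above also had counts away from those of all genes tested (37.9% higher and 39.6% lower). Of 47 tested of 99 GDSL lipase genes, a family of secreted esterases, 32 were lower (68.1%) and 6 were higher, with a median log2 difference of -1.83. Of 14 tested of 67 class III peroxidase genes, which act on the wall, 11 were lower and 1 was higher. All 13 listed plastid and mitochondrial ribosomal protein genes were tested, and 12 were lower with a median of -0.74. RING and U-box ubiquitin ligase genes leaned the other way, with 130 of 230 tested higher (56.5%) and 60 lower (26.1%). Of 260 tested pentatricopeptide repeat genes, which process organelle RNA, 102 were higher (39.2%), near the share of all genes. Fewer than over all genes were lower, 49 (18.8%), and 109 did not pass the test. These families were taken by words in the annotation and may hold members of other kinds.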
